A study of Mus musculus with 6 samples.

Results

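Chromatin accessibility was examined at the nuclear genes that encode the subunits of the mitochondrial respiratory chain and the ATP synthase, in the white cells of mouse blood. Members were the protein-coding genes of the GENCODE mouse annotation (GRCm39) whose symbols begin with Ndufa, Ndufb, Ndufc, Ndufs or Ndufv, with Sdha to Sdhd, with Uqcr, with Cox4 to Cox8 or with Atp5, and assembly factors were left out. This rule gave 90 gene records with 89 symbols out of 21757 protein-coding genes, because Atp5po is annotated under 2 gene identifiers. Complex I held 38 of them, complex II 4, complex III 8, complex IV 21 and complex V 19. Ndufa4 and its paralog Ndufa4l2 were counted with complex IV, where the Ndufa4 protein resides.

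The respiratory chain sits in the inner mitochondrial membrane. Complexes I and II take electrons from NADH and succinate and hand them to ubiquinone, complex III passes them on to cytochrome c, and complex IV reduces oxygen. Complexes I, III and IV pump protons, and complex V, the ATP synthase, lets them flow back to make ATP. Complexes I, III, IV and V also hold subunits encoded in mitochondrial DNA, which are not part of this gene set. The nuclear promoters are known for binding sites of NRF1, the ETS factor GABP, YY1 and SP1, and several complex IV subunits have alternative forms that are used mainly in muscle, testis or hypoxic tissue.

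ATAC-seq measures open chromatin, because the transposase Tn5 can place sequencing adapters only where DNA is exposed. Each of the 6 libraries came with its own list of accessible regions (peaks). There were 3 control libraries and 3 of high-altitude de-acclimatization (HADA). The study's methods describe male C57BL/6j mice, 8 weeks old when bought; HADA mice spent 28 days in a hypobaric chamber and then returned to normal oxygen, while controls stayed in normal oxygen throughout. The time between return and blood sampling for these libraries is not given in the sources used here, and neither is whether blood was pooled. The labels describe unsorted leukocytes after lysis of red cells, so every value is an average over all white cell types, and fewer cells of a type cannot be told apart from less accessible chromatin per cell. The study's text also speaks of mononuclear cells, a fraction that would hold few neutrophils, and which preparation was used is not settled by the sources used here.

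The lists held between 34128 and 45885 peaks per library. The control lists averaged 38911 ± 4216 peaks and the HADA lists 44748 ± 928 (SD, n = 3 each, exact two-sided permutation p = 0.100, the smallest that 3 against 3 libraries allow). The libraries also differed in cell-type markers. The summed relative height at 10 B cell genes (relative height is defined with the promoter values) lay between 1.06 and 7.48 in controls and between 16.2 and 17.8 in HADA, and 4 of 4 tested regions were higher. At 10 neutrophil genes the sum lay between 7.31 and 17.8 in controls and between 2.25 and 3.65 in HADA, and 5 of 5 tested regions were lower. Camp and Ngp, neutrophil granule genes, had no peak in any library. Control replicate 3 stood apart from the other controls, with the lowest B cell sum (1.06) and the highest neutrophil sum (17.8). The T cell list ranged from 9.75 to 11.3 in controls and from 12.2 to 12.5 in HADA, the monocyte list from 2.88 to 4.02 and from 2.79 to 2.82, and the NK cell list from 1.04 to 2.00 and from 1.85 to 2.98. Of the tested regions, 3 of 7 were higher on the T cell list and 3 of 3 lower on the monocyte list. Erythroid and platelet genes ranged from 2.62 to 2.93 in controls and from 4.44 to 5.10 in HADA, and the 2 of 7 eosinophil and basophil genes with a peak from 0.709 to 0.897 and from 1.04 to 1.13. The only tested region of that last list went the other way, from 0.690, 0.709 and 0.816 to 0.576, 0.481 and 0.420 (-0.59), and was not called. All 5 genes used by all leukocytes had peaks in 6 libraries, summing to between 16.9 and 28.2 in controls and between 15.0 and 16.9 in HADA, with 2 of 5 lower, and none of 5 genes of other tissues had a peak.

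The promoters of 7 genes are shown first, as the extremes of the set, as a pair of isoforms and as examples of motif matches. Ndufa3 (chr7:3620202-3620401, plus strand) and Ndufs7 (chr10:80085042-80085241, plus strand) had the largest differences upwards and downwards, and Uqcrh (chr4:115932267-115932466, minus strand) had the tallest peak of all members in controls. Sdhd (chr9:50515095-50515294, minus strand) in complex II and Atp5f1d (chr10:79977216-79977415, plus strand) in complex V were not called and are shown for their motif matches. Cox6a1 (chr5:115487011-115487210, minus strand) and Cox6a2 (chr7:127805530-127805729, minus strand) are the broadly used and the muscle form of 1 subunit. Each sequence is the GRCm39 reference from 170 bases before the annotated canonical start to 30 bases from it on. Capitals mark matches to the letters searched for NRF1, ETS factors, YY1, CREB and ERR on either strand.
Ndufa3: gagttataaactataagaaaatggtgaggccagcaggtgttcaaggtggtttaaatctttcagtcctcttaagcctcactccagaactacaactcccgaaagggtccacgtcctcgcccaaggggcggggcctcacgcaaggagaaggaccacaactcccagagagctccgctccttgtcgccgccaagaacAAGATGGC
Ndufs7: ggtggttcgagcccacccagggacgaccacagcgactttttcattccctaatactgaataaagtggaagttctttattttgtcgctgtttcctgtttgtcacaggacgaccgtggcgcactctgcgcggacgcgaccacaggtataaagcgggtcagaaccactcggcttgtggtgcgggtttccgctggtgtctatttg
Sdhd: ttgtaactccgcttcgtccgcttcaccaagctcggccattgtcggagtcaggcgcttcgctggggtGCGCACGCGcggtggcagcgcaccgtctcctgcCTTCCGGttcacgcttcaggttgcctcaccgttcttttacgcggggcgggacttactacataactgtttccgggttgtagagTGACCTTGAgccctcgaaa
Uqcrh: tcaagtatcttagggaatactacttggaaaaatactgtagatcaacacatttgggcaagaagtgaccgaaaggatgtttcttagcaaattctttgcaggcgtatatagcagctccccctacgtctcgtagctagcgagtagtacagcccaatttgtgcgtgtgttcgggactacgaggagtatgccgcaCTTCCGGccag
Cox6a1: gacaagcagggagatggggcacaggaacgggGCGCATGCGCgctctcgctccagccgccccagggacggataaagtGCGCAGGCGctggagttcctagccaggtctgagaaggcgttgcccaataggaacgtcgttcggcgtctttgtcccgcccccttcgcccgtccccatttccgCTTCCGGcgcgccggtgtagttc
Cox6a2: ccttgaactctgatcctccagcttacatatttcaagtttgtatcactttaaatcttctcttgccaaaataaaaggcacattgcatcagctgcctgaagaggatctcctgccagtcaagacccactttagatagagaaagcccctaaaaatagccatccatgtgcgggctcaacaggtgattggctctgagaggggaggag
Atp5f1d: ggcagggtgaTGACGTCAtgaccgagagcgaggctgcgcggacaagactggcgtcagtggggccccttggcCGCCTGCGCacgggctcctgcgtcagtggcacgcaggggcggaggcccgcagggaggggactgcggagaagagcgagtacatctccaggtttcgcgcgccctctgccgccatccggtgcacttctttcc
In Ndufa3 the capitals are a YY1 match that begins at base 23 after the start. Sdhd holds an NRF1 match at position -104, an ETS match at -71 and an ERR match at 12, and Uqcrh an ETS match at 20. Cox6a1 carries overlapping NRF1 matches at -139 and -138, another at -94 and an ETS match at 8, whereas Cox6a2 and Ndufs7 show no capitals. Atp5f1d has a CREB match at -160 and an NRF1 match at -99.

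Peaks marked nearly all members. A gene was linked to every region with a summit within 3 kb of an annotated start, and the region with the highest mean summit pileup (the number of reads or fragments stacked on the summit base) stood for the gene. Of the 90 members, 86 had a linked region, and for 81 it had a peak in 6 of 6 libraries, which is 90.0% of members against 53.1% of all protein-coding genes. The summit lay within 200 bp of a start in 78 of these 81 (96.3%, against 83.4% of the 9962 distinct promoter regions of protein-coding genes with a peak in all libraries). The median distance was 64.0 bp for members and 73.0 bp for protein-coding promoters, and the median width 1031 bp and 1135 bp. In 36 of the 81 the region also held the start of another protein-coding gene, and in 16 such a start was nearer to the summit, so the signal there cannot be assigned to the member alone.

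No member had a peak in 3 HADA and 0 control libraries, and none in 3 control and 0 HADA libraries. Among 12390 promoter regions of protein-coding genes these patterns made up 2.91% and 0.444%. The numbers of members with a linked peak were 85, 84 and 81 in control replicates 1 to 3 and 85, 85 and 83 in HADA replicates 1 to 3. The 5 members with a peak in some libraries and the 4 without were mainly tissue-restricted forms or annotated copies. Ndufa9, an accessory subunit of complex I and the exception, had pileups of 39, 21 and 0 in controls and 59, 52 and 54 in HADA at 96 bp from an annotated start. Scaled to the library these were 0.672, 0.382 and 0 and 0.641, 0.675 and 0.667, so that control replicate 1 lay within the HADA range, and the region was not tested. Control replicate 3, the library without the peak, was also the control with the lowest relative height, pileup scaled to the library, at 7 of the 10 members called higher. Ndufb11b had pileups of 9 and 10 in control replicates 1 and 2 and none elsewhere, 1529 bp from its start, and the 50 bases at that summit occur 77 times in the genome. No peak was linked to Cox7b2, Cox8c, Cox5b-ps or the Atp5po record ENSMUSG00000116933.2.

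The heights were compared after scaling. Relative height is the summit pileup divided by the library's median over 23970 regions with a peak in all 6 libraries. That median pileup was 58, 55 and 49 in controls and 92, 77 and 81 in HADA, and the background pileup was 1.69 to 2.05 in controls and 1.99 to 2.34 in HADA (exact permutation p = 0.200), so raw pileups were not on the same scale across libraries. On this scale the 81 tested members had a median of 2.07, 1.91 and 2.22 in the 3 controls and 2.15, 2.08 and 2.02 in the HADA libraries. The groups overlapped and the middle of the set lay at the same level in both. The tallest member was Uqcrh in each control (6.76, 7.05 and 10.4) and Atp5mc1 in each HADA library (7.01, 6.71 and 6.46). The lowest tested member was Cox6b2, the testis form of a complex IV subunit, in all 6, at 0.255 to 0.448.

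Of the 81 members tested, 10 were higher in HADA, 4 were lower and 67 did not pass the test (limma on log2 summit pileup over all 23970 shared regions, Benjamini-Hochberg adjusted p under 0.05). Among all shared regions 18.4% were higher and 24.5% lower, and among the 9962 protein-coding promoters 21.9% were higher and 8.22% lower. The members' shares of 12.3% and 4.94% were below those of promoters in both directions. The median difference (HADA minus control, log2) was 0.01 for members, with quartiles of -0.13 and 0.32, and 0.12 for protein-coding promoters, with quartiles of -0.19 and 0.46. For 17 members each HADA library lay above each control and for 7 each lay below, where 37.0% and 14.9% of protein-coding promoters did so. The counts turned on the scaling: dividing by each library's background gave 23 higher and 0 lower, centring on promoters 4 and 8, a GC correction 5 and 4, and ranks of the deposited fold enrichment 4 and 0. In these fits 44.1%, 30.7%, 25.1% and 9.64% of protein-coding promoters were called in either direction, against 30.1% before. They also rested on all HADA libraries, since 1 and 2 were left without HADA replicate 1, 1 and 0 without replicate 2, and 3 and 0 without replicate 3. Calls over all protein-coding promoters fell too, to 15.0%, 9.09% and 12.8%. Each of the 14 called members lost its call in at least 1 of these 3 fits. Without control replicate 3 there were again 10 higher and 4 lower, of which 8 and 4 were the same genes.

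**Figure D1:**
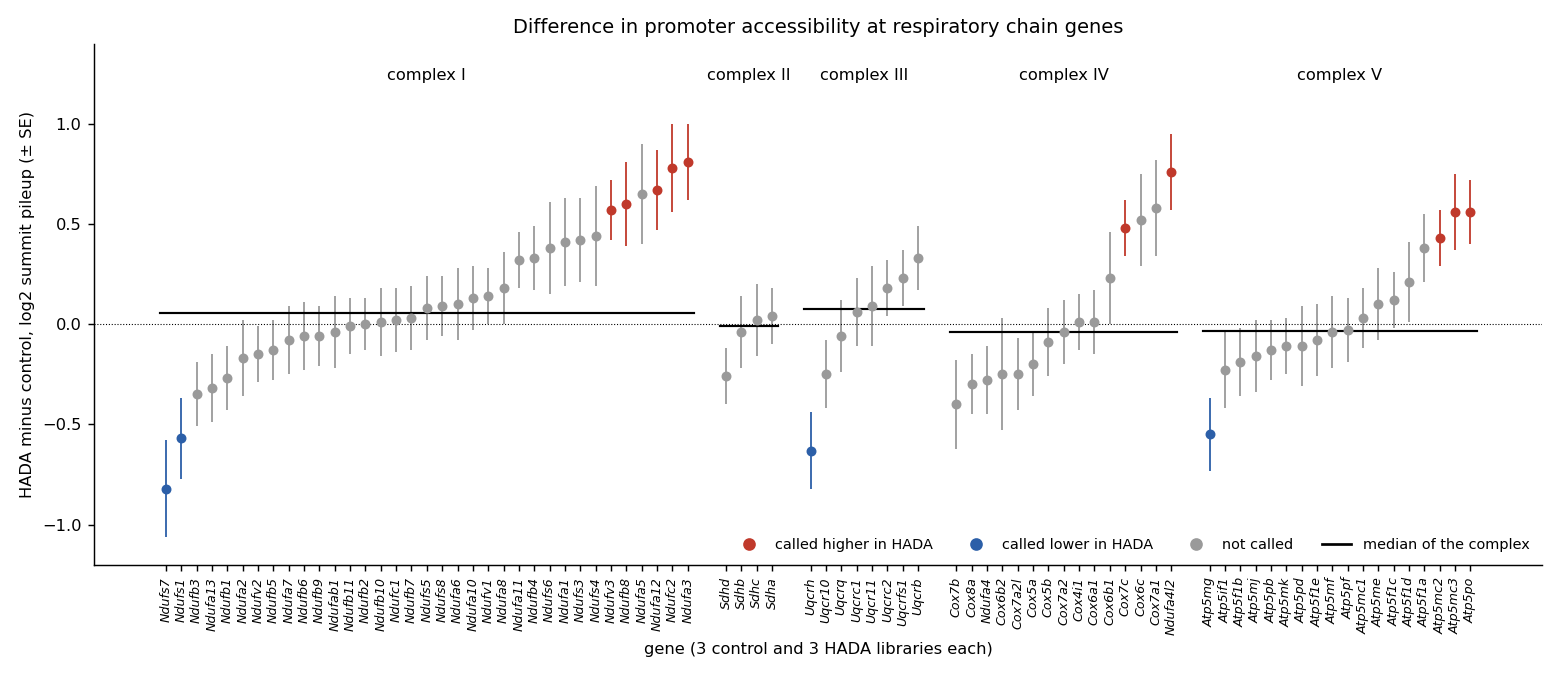
Difference in log2 summit pileup between HADA and control (vertical axis, points with SE, 3 libraries per group) for 80 of the 81 tested genes, ordered within each complex; red points were called higher, blue points lower and grey points neither. Complex I spans from -0.82 at Ndufs7 to 0.81 at Ndufa3, complex II has no called gene, and the horizontal bars (medians) lie between -0.04 and 0.07.

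Complex I, the largest, contributed 5 of the 10 higher and 2 of the 4 lower genes among 36 tested, with a median difference of 0.05. All 5 higher genes encode accessory subunits, which surround the catalytic core and make up most of the tested genes of this complex. Ndufa3 (chr7:3619967-3620903, summit 168 bp before a start) had relative heights of 1.34, 1.16 and 0.878 in controls and 2.15, 1.83 and 1.86 in HADA. The groups did not overlap, and the difference was 0.81 ± 0.19 (log2, SE, adjusted p = 0.0122). This region also contains a start of Oscar, a receptor gene of myeloid cells. Ndufc2 (chr7:97049049-97049934), a subunit of the membrane arm, rose from 1.12, 0.655 and 0.796 to 1.39, 1.35 and 1.58 (0.78 ± 0.22, adjusted p = 0.0214).

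Ndufa12, the paralog of the assembly factor Ndufaf2, rose by 0.67 ± 0.20 (adjusted p = 0.0245), from 2.34, 2.15 and 1.45 to 3.07, 2.82 and 3.38. Without control replicate 3 the difference was 0.41 and still passed, and the call was lost when any HADA library was left out. Ndufb8 (0.60 ± 0.21, adjusted p = 0.0462) was low in every library, at 0.455 to 0.633 in controls and 0.815 to 0.901 in HADA. Its region holds a nearer start of the overlapping gene model Gm20538. Ndufv3, which sits at the NADH-oxidising end, rose by 0.57 ± 0.15 (adjusted p = 0.0161), with 2.34, 1.96 and 1.94 in controls and 3.07, 3.35 and 2.83 in HADA, and its region is shared with Wdr4.

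The lower genes of complex I both belong to the electron-transferring core. Ndufs7 (chr10:80084673-80085675, summit 92 bp after an annotated start), whose iron-sulfur cluster is the last before ubiquinone, had relative heights of 5.07, 5.18 and 8.80 in controls and 4.32, 3.40 and 2.86 in HADA. Every HADA value was below every control, the difference was -0.82 ± 0.24 (adjusted p = 0.0238), and control replicate 3 was far above the other controls. Ndufs1 (chr1:63215464-63216483), the large iron-sulfur subunit of the NADH-oxidising arm, fell from 4.21, 4.51 and 6.78 to 3.86, 3.30 and 3.11 (-0.57 ± 0.20, adjusted p = 0.0437). A start of Eef1b2, a translation elongation factor gene, was nearer to that summit. Ndufv1, a core subunit that binds NADH and flavin, had a difference of 0.14 ± 0.14 and did not pass (adjusted p = 0.436). The core genes Ndufs3 (0.42 ± 0.21), Ndufs8 (0.09 ± 0.15) and Ndufv2 (-0.15 ± 0.14) were not called either.

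Ndufb10, an accessory subunit, had its highest region 2772 bp away at the ribosomal protein gene Rps2 (0.01 ± 0.17), and the region 21 bp from its own start differed by 0.17 ± 0.18 (adjusted p = 0.455). Taking for every gene the region nearest to a start, a choice made after seeing the data, left 10 members higher and 4 lower.

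**Figure D2:**
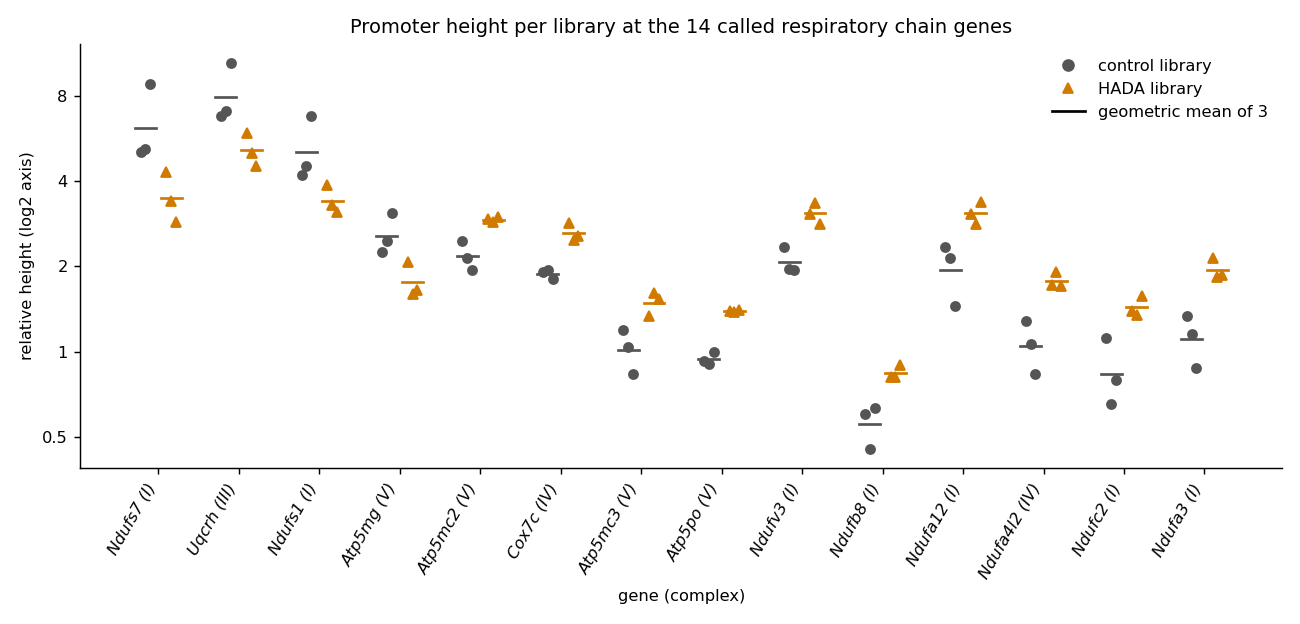
Relative height (vertical log2 axis) of the 14 called genes in each control library (grey circles) and each HADA library (orange triangles), with bars at the geometric mean of 3 libraries, ordered by the difference. HADA and control points do not overlap for any of the 14, the 4 lower genes are mostly tall, and at Ndufs7 controls run from 5.07 to 8.80 and HADA libraries from 2.86 to 4.32.

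Complex II, succinate dehydrogenase, is the only complex encoded wholly in the nucleus, and it also serves the citrate cycle. All 4 genes were tested and none passed. Sdha, the flavoprotein, had relative heights of 1.83, 1.71 and 1.71 in controls and 1.76, 1.95 and 1.70 in HADA, a difference of 0.04 ± 0.14 (adjusted p = 0.827). Sdhb, the iron-sulfur subunit, differed by -0.04 ± 0.18, and the membrane anchor Sdhc by 0.02 ± 0.18. The other anchor, Sdhd, whose promoter is printed with the NRF1, ETS and ERR matches, lay at 2.66, 2.55 and 2.90 in controls and 2.41, 2.08 and 2.28 in HADA. These did not overlap, yet the difference of -0.26 ± 0.14 did not pass (adjusted p = 0.157). In the Sdhd region a start of Timm8b was nearer to the summit.

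Complex III had 1 called gene of 8, and the median difference was 0.07. Uqcrh (chr4:115931644-115933681), the hinge protein that helps cytochrome c dock, fell from 6.76, 7.05 and 10.4 to 5.91, 5.04 and 4.53 (-0.63 ± 0.19, adjusted p = 0.0299). Its region of 2038 bp is shared with Lrrc41, whose start is nearer to the summit. The core protein Uqcrc1 and the Rieske iron-sulfur protein Uqcrfs1 differed by 0.06 ± 0.17 and 0.23 ± 0.14 (adjusted p = 0.813 and 0.204). Uqcrfs1 was higher in each HADA library (2.27 to 2.51) than in each control (1.90 to 2.24) without passing the test.

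Complex IV had 2 higher and 0 lower genes among 15 tested, at a median of -0.04. Cox7c (chr13:86194381-86195056), a small structural subunit, rose from 1.91, 1.95 and 1.80 to 2.84, 2.47 and 2.57 (0.48 ± 0.14, adjusted p = 0.0232), with little scatter among controls. The 50 bases at its summit occur 2 times in the genome, so some reads may belong to the copy. Ndufa4l2, the hypoxia-inducible relative of Ndufa4, was the other (0.76 ± 0.19, adjusted p = 0.0141), with 1.28, 1.07 and 0.837 in controls and 1.72, 1.91 and 1.70 in HADA. That region (chr10:127347438-127349530) lies 2106 bp before the start, no peak lay within 1 kb, and the rank of the fold enrichment turned the direction (-0.31). Ndufa4 itself differed by -0.28 ± 0.17 (adjusted p = 0.193). The structural subunits Cox4i1 and Cox5a did not pass, at 0.01 ± 0.14 and -0.20 ± 0.16 (adjusted p = 0.960 and 0.334).

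The alternative forms of complex IV subunits had small or missing peaks beside their broadly used partners in both groups. The pileup at Cox4i1 was 160, 126 and 136 in controls and 253, 188 and 216 in HADA, with the summit 193 bp before a start. A start of Emc8 was nearer to that summit. At Cox4i2, the form tied to lung and to low oxygen, the pileup was 12, 14 and 0 and then 43, 37 and 37. That summit lay inside the gene, 1722 bp after its nearest annotated start. Every HADA library was above every control there, but the region was not tested because control replicate 3 lacked the peak. The muscle forms were close to absent. Cox6a2 had pileups of 14, 0 and 0 in controls and 14, 16 and 0 in HADA, 1946 bp from its start, against 91 to 187 at Cox6a1. Cox8b had 17 and 10 in HADA replicates 1 and 2 and none in the rest, 2826 bp away, against 179 to 299 at Cox8a.

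Cox7a1, the muscle form paired with Cox7a2, was an exception among muscle forms, since a peak 9 bp from its start was present in all libraries. Its relative heights of 0.621, 0.564 and 0.469 in controls and 0.620, 0.961 and 0.926 in HADA overlapped, and the difference of 0.58 ± 0.24 did not pass (adjusted p = 0.0772). Cox7a2 differed by -0.04 ± 0.16 (adjusted p = 0.843). Among testis forms Cox6b2 had a low peak in every library (-0.25 ± 0.28, adjusted p = 0.493; Cox6b1 0.23 ± 0.23, adjusted p = 0.451), and Cox7b2 and Cox8c had none, whereas Cox7b and Cox8a differed by -0.40 ± 0.22 and -0.30 ± 0.15 (adjusted p = 0.161 and 0.118). Cox6a1 differed by 0.01 ± 0.16 (adjusted p = 0.957).

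**Figure D3:**
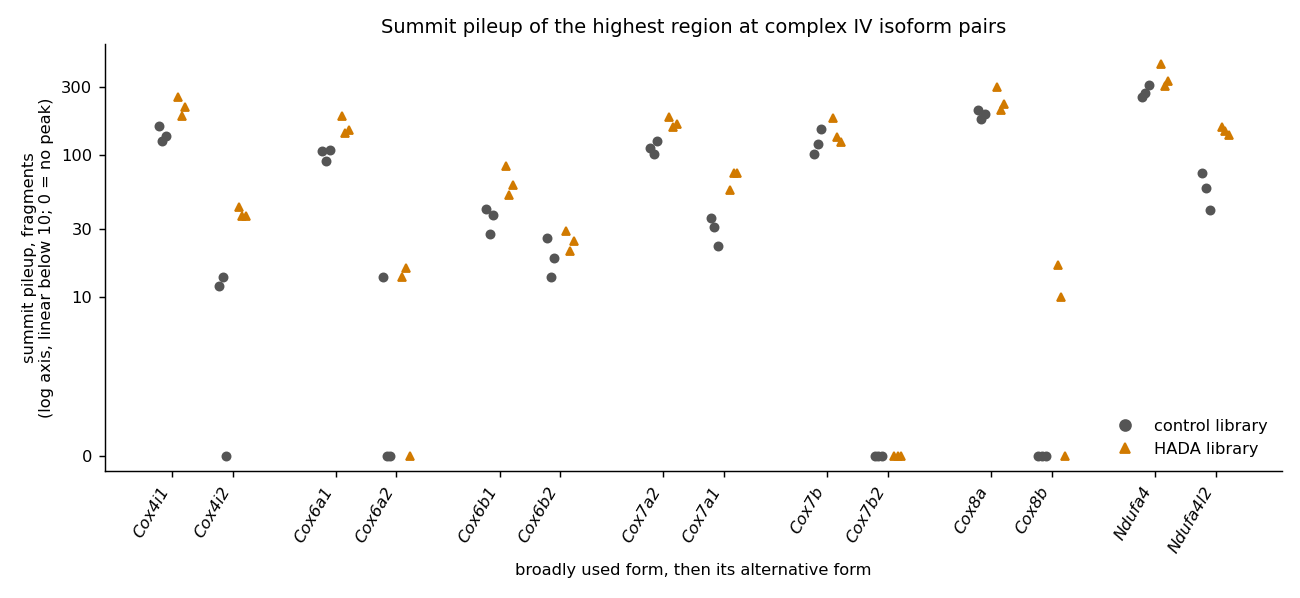
Summit pileup (vertical axis, logarithmic above 10 and linear below, 0 where the library had no peak; not scaled for depth) of the highest linked region for pairs of complex IV isoforms, in each control (grey circles) and HADA library (orange triangles). In every pair the alternative form lies below its partner in each library, as at Cox6a2 (at most 16) and Cox6a1 (at least 91); Cox8c, a further form without a peak, is not drawn.

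Complex V had 3 higher and 1 lower gene among 18 tested, at a median of -0.03. Atp5mc1, Atp5mc2 and Atp5mc3 encode the same mature c subunit of the proton-driven ring and were followed side by side. Atp5mc1 was the tallest of them, with 6.34, 5.78 and 7.71 in controls and 7.01, 6.71 and 6.46 in HADA, and did not pass (0.03 ± 0.15, adjusted p = 0.868). Atp5mc2 (chr15:102578938-102580245) rose from 2.45, 2.15 and 1.94 to 2.93, 2.86 and 2.99 (0.43 ± 0.14, adjusted p = 0.0368). Atp5mc3 (chr2:73740967-73741999) rose from 1.19, 1.04 and 0.837 to 1.34, 1.61 and 1.54 (0.56 ± 0.19, adjusted p = 0.0378). The Atp5mc2 and Atp5mc3 calls were each kept in 1 of the 6 fits that leave out a library, with differences of at least 0.30 and 0.38, and were lost under GC correction, promoter centring, ranks and the replicate block. The differences between these genes were not tested.

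Atp5po (ENSMUSG00000022956.13, chr16:91728084-91729028), part of the stalk that holds the catalytic head still, rose from 0.931, 0.909 and 1.00 to 1.39, 1.38 and 1.41, by 0.56 ± 0.16 (adjusted p = 0.0211). Replicates were the tightest here among the called genes of this complex. Atp5mg (chr9:44831464-44832592), a small membrane subunit, fell from 2.24, 2.45 and 3.08 to 2.07, 1.60 and 1.65 (-0.55 ± 0.18, adjusted p = 0.0342). The head subunits Atp5f1a and Atp5f1b differed by 0.38 ± 0.17 and -0.19 ± 0.17 and did not pass (adjusted p = 0.0921 and 0.371). Atp5f1d, a subunit of the central stalk, had 3.02, 1.93 and 3.22 in controls and 2.85, 3.14 and 3.27 in HADA, which overlapped (0.21 ± 0.20, adjusted p = 0.409).

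By complex, the median relative height in the 6 libraries ran from 1.86 to 2.24 for complex I, from 1.97 to 2.54 for complex II, from 2.09 to 2.65 for complex III, from 1.84 to 2.41 for complex IV and from 1.83 to 2.16 for complex V. Among the complexes only complex III had its 3 HADA medians (2.65, 2.60 and 2.59) above all controls (2.53, 2.09 and 2.19). This was not particular to complex III. The medians over all 9962 tested protein-coding promoters were separated too, at 2.09, 2.06 and 2.02 in HADA and 1.93, 1.67 and 1.92 in controls. In all 5 complexes the direction of the median difference followed the scaling. The differences were 0.33 to 0.45 after division by library background and -0.20 to -0.08 after centring on promoters. Division by background put the median difference of all shared regions at 0.34, from -0.04 before. After the same division the median was 0.39 for members and 0.50 for protein-coding promoters.

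**Figure D4:**
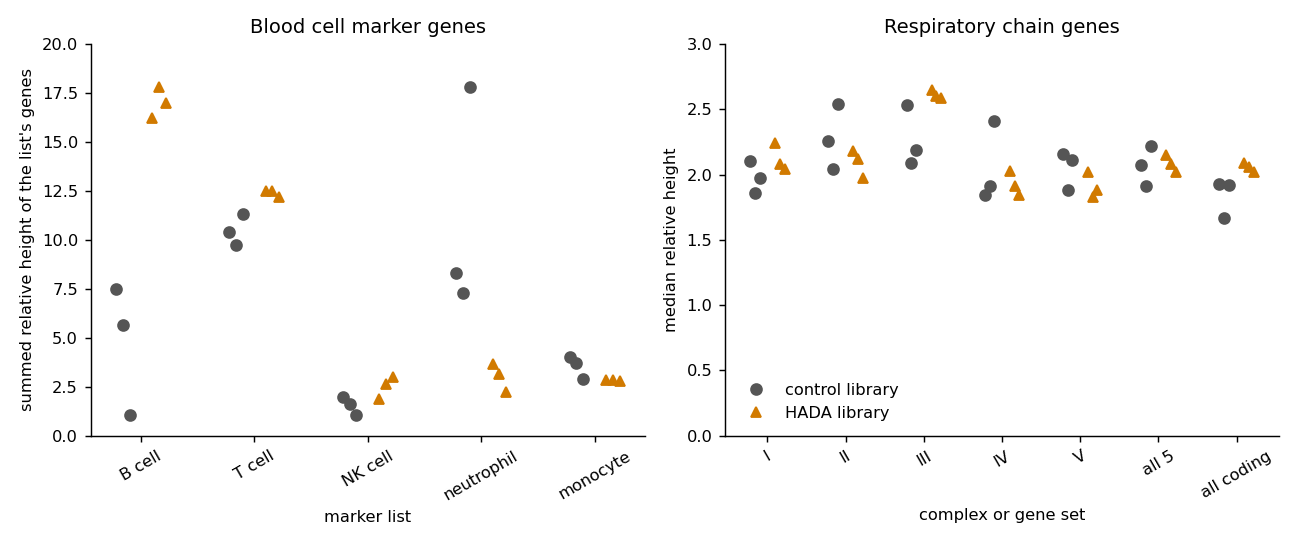
Left, summed relative height at marker genes of 5 blood cell types in each control (grey circles) and HADA library (orange triangles); right, median relative height at the genes of each complex, at all 81 tested members and at all tested protein-coding promoters. B cell sums separate the groups (at most 7.48 against at least 16.2) and neutrophil sums do so the other way (at least 7.31 against at most 3.65), while the medians of the complexes stay between 1.83 and 2.65.

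Height and difference were related across genes. Members called higher had mean relative heights of 0.686 to 2.53 (median 1.42), at the 13.1th to 62.9th percentile of protein-coding promoters, and members called lower had 2.13 to 6.37 (median 4.38), at the 54.7th to 94.8th. Across the 81 members the correlation of mean log2 height with the difference was -0.49 (Pearson) and -0.50 (Spearman), and across 9962 protein-coding promoters -0.21 and -0.34. These are descriptions across genes of the same libraries, which are not independent replicates, and height enters both axes. In the highest tertile of promoters by height, 0 of 26 members were higher and 3 lower (9.45% and 8.67% of promoters); in the middle tertile 6 of 34 and 1 (26.5% and 6.63%); in the lowest tertile 4 of 21 and 0 (29.8% and 9.36%).

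**Figure D5:**
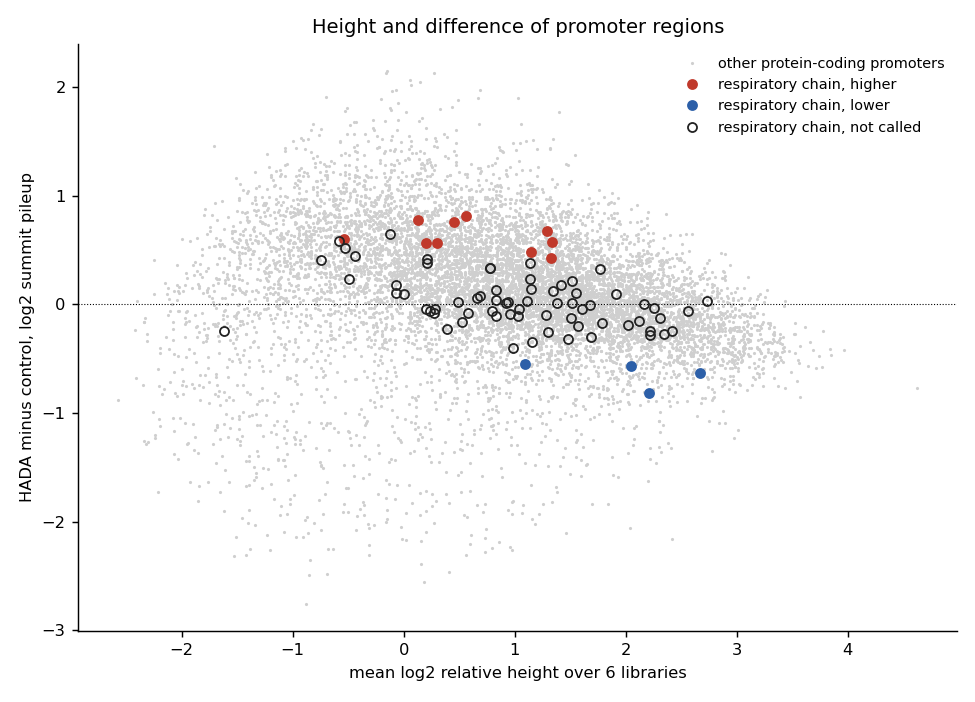
Mean log2 relative height over 6 libraries (horizontal axis) and HADA minus control difference (vertical axis, log2) for 9962 promoter regions; grey dots are other protein-coding promoters, red and blue points members called higher and lower, and open circles members not called. Members slope downwards (Pearson r = -0.49) and keep between -0.82 and 0.81, inside a cloud that reaches -2.76 and 2.15.

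The controls did not scatter evenly at the called genes, and how they scattered at other called promoters was not counted. Control replicate 3 was the control farthest from the HADA libraries at 7 of 10 genes called higher and at 4 of 4 called lower, and control replicate 2 at the other 3. This library had the highest neutrophil and the lowest B cell marker sum, and the part of cell composition in these calls was not tested. Without control replicate 3, Atp5mc2 and Atp5mc3 lost the call, at differences of 0.30 and 0.38. Without control replicate 2 the losses were Atp5mc2 (0.43), Atp5mc3 (0.58), Ndufb8 (0.45) and, among genes called lower, Atp5mg (-0.57). None of the 14 lost the call without control replicate 1.

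Letters known from respiratory chain promoters were searched on both strands from 250 bases before to 50 after the canonical start. The NRF1 letters GCGCANGCG occurred in 15 of 90 members (16.7%) against 8.08% of 21757 protein-coding genes and 12.9% of the 11558 whose highest region was tested; among the 81 tested members the share was 18.5%. The ETS letters CCGGAAG were found in 14.4% of members, 10.3% of all genes and 16.8% of genes with a tested promoter, and the YY1 letters AAGATGGC in 6.67%, 2.47% and 3.82%. SP1 letters GGGCGG were as frequent in members (41.1%) as in all genes (42.5%) and rarer than in genes with a tested promoter (59.5%). CREB letters TGACGTCA were held by 3 members (3.33%, against 2.45% of all genes and 3.39% of those with a tested promoter) and the ERR letters TCAAGGTCA by 1, Sdhd (1.11% against 0.473%). None of the 6 sets of letters contains another, but matches of different motifs can share bases.

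The motifs were spread unevenly over the complexes. NRF1 letters were held by 2 of 4 genes of complex II, 5 of 19 of complex V, 2 of 8 of complex III, 5 of 38 of complex I and 1 of 21 of complex IV (Cox6a1). All 4 genes of complex II held SP1 letters. YY1 letters occurred in 3 of the 10 members called higher (Ndufa3, Ndufb8 and Ndufa4l2), 0 of 4 called lower and 2 of 67 not called, and ETS letters in 0 of 10, 2 of 4 (Uqcrh and Atp5mg) and 10 of 67. NRF1 letters were in 1 of 10, 1 of 4 and 13 of 67. With so few called genes these counts are listed as descriptions, and a match does not show that a factor was bound. The promoter windows of members had a median GC content of 55.0% and a CpG ratio (observed over expected) of 0.712, against 58.3% and 0.725 for genes with a tested promoter and 54.3% and 0.517 for all genes.

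Genes that build, feed or regulate the chain were followed as lists. Of 55 tested assembly factor promoters 10 were higher and 1 lower (18.2% and 1.82%, against 21.9% and 8.22% of protein-coding promoters), with a median of 0.17 against 0.12. Sdhaf3, which matures the iron-sulfur subunit of complex II, rose by 1.03 ± 0.22 (adjusted p = 0.00873), from 0.633 to 1.07 in controls to 1.68 to 1.85 in HADA. Ndufaf5, a complex I assembly factor, and Cox11, which delivers copper to complex IV, rose by 0.87 ± 0.22 and 0.73 ± 0.16 (adjusted p = 0.0150 and 0.00892). Cox17, a copper chaperone, fell from 2.19, 2.31 and 3.41 to 1.49, 1.49 and 1.41 (-0.82 ± 0.19, adjusted p = 0.0110). Of the other copper-related assembly factors Sco2 rose by 0.55 ± 0.14 (adjusted p = 0.0152), and Sco1 (0.29 ± 0.20), Coa6 (0.35 ± 0.16) and Cox19 (0.03 ± 0.18) did not pass (adjusted p = 0.271, 0.105 and 0.909).

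Among 6 electron carriers and entry genes 2 were higher, with a median of 0.07; both lost the call when control replicate 2, control replicate 3 or any HADA library was left out. Cyc1, cytochrome c1 of complex III, whose symbol falls outside the rule, rose by 0.79 ± 0.28 (adjusted p = 0.0487), while Uqcrh, which contacts its protein, fell. The groups overlapped at Cyc1, with 1.14, 0.582 and 0.551 in controls and 1.24, 1.39 and 1.10 in HADA. Etfa, which passes on electrons of fatty acid oxidation, rose by 0.47 ± 0.15 (adjusted p = 0.0343). Of 13 citrate cycle genes 2 were higher and 1 lower, with a median of -0.10. Suclg2 (0.99 ± 0.16, adjusted p = 0.00628) encodes the GTP-forming succinyl-CoA ligase subunit, and Fh1 (0.57 ± 0.15, adjusted p = 0.0165) encodes fumarase.

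Of 15 tested regulator genes 5 were higher and 0 lower (33.3% higher, against 21.9% of protein-coding promoters), with a median of 0.18 against 0.12. Ppargc1b, a coactivator of mitochondrial biogenesis, rose by 0.90 ± 0.21 (adjusted p = 0.0107), Myc by 0.83 ± 0.21 (adjusted p = 0.0152), and Tfam, which packages and transcribes mitochondrial DNA, from 1.48, 1.35 and 1.10 to 2.24, 2.09 and 2.37 (0.78 ± 0.16, adjusted p = 0.00876). The ranks of fold enrichment turned Ppargc1b to -0.01, Tfam to -0.12 and Fh1 to -0.19. Of the factors whose letters were searched, Nrf1 had a difference of 0.50 ± 0.16 (adjusted p = 0.0360), and Gabpa (-0.03 ± 0.16, adjusted p = 0.881), Yy1 (-0.38 ± 0.20, adjusted p = 0.140) and Esrra (0.20 ± 0.14, adjusted p = 0.269) did not pass. Neither did Sp1 (-0.21 ± 0.20, adjusted p = 0.419) or Creb1 (0.02 ± 0.15, adjusted p = 0.921). Gabpa shares its region with the member Atp5pf. For comparison, 7 of 82 cytosolic ribosomal protein promoters were higher and 3 lower (median -0.01), and 9 of 75 mitochondrial ribosomal ones were higher and 2 lower (median 0.12).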

How the data were processed

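ATAC-seq of unsorted mouse blood leukocytes was available as 6 peak lists, 3 control and 3 HADA. Per the labels, the authors used Trimmomatic for trimming, Bowtie2 for alignment to GRCm39, Picard for duplicates and MACS2 for peaks, with each library called separately; versions, options and any Tn5 shift are not given in the sources used here. A missing Tn5 shift would move summits by a few bases. The deposited lists hold a score, a fold enrichment (ratio of summit to local background), the −log10 p-value and q-value, and the summit position. Read totals were not used here.

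Summit pileups were solved from the fold enrichment and −log10 p-value (Poisson), which succeeded for 100.0% of peaks, on 21 main chromosomes. Overlapping peaks (at least 1 bp) were joined into 62876 regions. Log2 pileups of the 23970 regions with a peak in 6 libraries were centred per library on their median and tested with limma 3.58.1 (trend = TRUE, all regions, Benjamini-Hochberg, R 4.3.3); the procedure was tested on simulated data. Regions that 1 group lacks, and low regions, are therefore untested. Genes and starts came from GENCODE M39, and sequences from the GRCm39 genome. Single values were compared with exact permutation tests. Nothing says whether libraries came from separate animals, so p-values measure the spread between libraries, which may be technical. Counts of reads behind a summit limit precision at low peaks.

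Members, gene lists and motifs were chosen with earlier results of these data known. The text names core subunits, isoform pairs, up to 2 called genes per direction and complex, all members without a peak in some library, and up to 3 called genes per direction of each other list; the remaining called members and single further regions were added after their values were seen. Alternatives were another joining of peaks, a stricter q-value, nearer or coding starts, other scalings, a GC correction, thinning, fewer required libraries, no variance trend, a replicate block and leaving out each library. Results for some genes are not reported here.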

Additional observations from a re-analysis of the deposited data

How the results depend on the processing

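Counts of members called higher and lower, 10 and 4, stayed within 1.5 times when peaks were joined by summits (9 and 4), under a stricter q-value, nearer or coding starts, quantile normalization (13 and 4), thinning (9 and 3), fewer required libraries (11 and 4) or the region nearest to a start. They became 23 and 0 over library background, 4 and 8 centred on promoters, 5 higher after GC correction, 4 and 0 with ranks of the fold enrichment, and 1 lower without the variance trend. The replicate block gave 5 and 1, and with GC correction 3 and 0. The labels do not say that a replicate number pairs mice, so the numbers were not taken as pairs. Same-numbered libraries did not deviate together (correlations -0.08, 0.08 and -0.38), and none correlated best with its own number. With 3 libraries per group these correlations cannot decide whether the numbers mark pairs. Leaving out a library gave 1 to 13 higher and 0 to 4 lower genes; each HADA library moved the counts by over 1.5 times (1 and 2, 1 and 0, 3 and 0); no called member changed sign when a library was left out.

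The median difference of members (0.01) moved to 0.39 over background, -0.15 centred on promoters, -0.12 with GC correction with or without the block, and 0.11 with ranks; the 6 fits without a library gave -0.08 to 0.06. In the order of complexes I to V the medians became 0.43, 0.37, 0.45, 0.33 and 0.34 over background and -0.11, -0.17, -0.08, -0.20 and -0.19 centred on promoters. GC correction gave -0.08 for complex I and -0.19 for complex II, the same under the block, and ranks gave 0.14 for complex I and 0.10 for complex V. Without a library complex II ranged from -0.15 to 0.07 and complex III from -0.07 to 0.18. For single genes 4 signs reversed, all with ranks of the fold enrichment: Ndufa4l2 -0.31, Tfam -0.12, Fh1 -0.19 and Ppargc1b -0.01. The cause was not tested.

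Members with a peak in control only numbered 1 without control replicate 3 (Ndufb11b), and in HADA only 1 without HADA replicate 3 (Cox8b). Around the summits (100 bases on either side) SP1 letters were in 30.9% of the 81 tested members (42.0% around the start), YY1 letters in 9.88% (6.17%), CREB letters in 4.94% (3.70%), NRF1 letters in 19.8% (18.5%), ETS letters in 13.6% (14.8%) and ERR letters in 0 (1.23%). Summit shares over the 9962 tested protein-coding promoters were 49.3% for SP1, 3.27% for YY1 and 1.68% for CREB. For NRF1, ETS and ERR letters they were 8.05%, 12.1% and 0.151%. Cox6b2, the lowest tested member (pileups of 14 to 29), had an SE of 0.28, and Ndufs7, with pileups of 232 to 431, one of 0.24; what depth adds to these errors was not tested.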
